A study of Mus musculus with 4 samples.

Results

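The genes described here are 10 peptide hormones and neuropeptides of the gut, namely gastrin (Gast), somatostatin (Sst), ghrelin (Ghrl), proglucagon (Gcg), cholecystokinin (Cck), peptide YY (Pyy), pancreatic polypeptide (Ppy), neurotensin (Nts), neuropeptide Y (Npy) and secretin (Sct). They were chosen by name, with earlier results of these data known. Every probe whose accession belonged to one of these symbols was taken. This gave 12 probes for the 10 genes, among 17016 named genes on the array. RNA was measured on 4 one-colour oligonucleotide arrays, with 2 arrays per group. The cells were sorted from glandular stomach tumours as Lin- CD44+ or Lin- CD44-. The mice were K19-Wnt1/C2mE animals, 30 weeks of age, so both groups carry the same transgenes, which express Wnt1, cyclooxygenase-2 and a prostaglandin E synthase from the keratin 19 promoter in the stomach epithelium. No stomach without the transgenes was measured here, and the sources used here do not say whether the replicates came from separate mice or pools. The comparison asks which of these hormone RNAs differed between the CD44+ and CD44- cells sorted from the tumours. CD44 is a cell-surface receptor for hyaluronan.

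Gut hormones are made by enteroendocrine cells, single cells scattered through the epithelium that store peptides in secretory granules and release them in response to food, acid or nerve signals. In the stomach, G cells make gastrin, which drives acid secretion, D cells make somatostatin, which restrains gastrin and acid, and X/A-like cells make ghrelin, which stimulates appetite. Cholecystokinin, secretin, neurotensin and the proglucagon peptides are mainly products of the intestine, while neuropeptide Y is best known from neurons and shares a family with peptide YY and pancreatic polypeptide.

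In CD44+ cells 6 of these hormones had less RNA than in CD44- cells and 1, neuropeptide Y, had more. The 6 lower ones were Ghrl, Sst, Ppy, Pyy, Cck and Sct, with log2 differences from -9.45 for Ghrl to -3.58 for Sct, and Npy was higher by 3.68. Gast did not pass the test, and Gcg and Nts were not tested because each was well above background on 1 array, the second CD44- array. A call here means an adjusted p under 0.05 by limma with Benjamini-Hochberg adjustment over all 21044 genes tested. Of all genes tested, 0.375% were called lower in CD44+ cells and 0.0238% higher, 0.399% in either direction. An unadjusted limma p under 0.05 was reached by 2263 of these 21044 genes. With each array scaled to its median the calls over all genes split into 121 higher and 626 lower, against 5 higher and 79 lower here. With normexp background correction they split into 98 and 442. The same 7 hormones were called in both. With quantile normalization limma called 0 of the 8 hormones, and with no filter on dim probes it called 3. Ppy entered the test only through the CD44- arrays, and so did Cck and the brighter Ghrl probe, which were well above background on 1 CD44+ array. A filter passed this way favours genes that differ, so the count of 7 of 8 describes these genes and is no test of them as a group. The genes were also chosen with earlier results of these data known, so the median below is no such test either. The median difference of the 8 genes tested was -5.08, against 0.16 for all genes tested. The 2 groups did not overlap for 7 of the 8, and for 39.6% of all genes tested (17.2% lower in CD44+ cells and 22.4% higher).

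**Figure D1:**
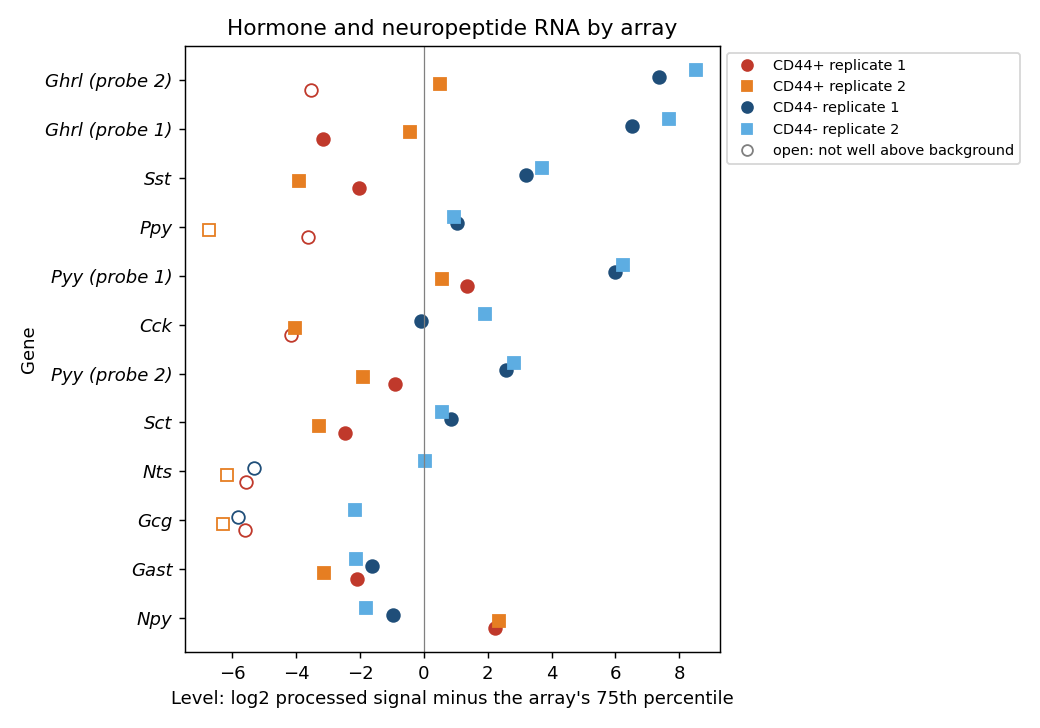
Level of each hormone gene on each array, in log2 units relative to the 75th percentile of that array, for all 12 probes, with CD44+ arrays in red and orange and CD44- arrays in blue. Open symbols are probes not well above background on that array. Npy lies higher on both CD44+ arrays, Gast overlaps, and Gcg and Nts are filled on the second CD44- array alone.

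The arrays share 1 slide and 1 scan. Gene spots well above background made up 53.1% to 69.6% of an array, lowest on the first CD44+ array, and no spot was saturated. The faintest level called well above background was -3.41 on the first CD44+ array and between -5.22 and -4.92 on the other three, so faint hormones are bounded less tightly on that array. Cd44, the sort marker, was at 6.31 and 6.54 in CD44+ cells and 4.26 and 5.11 on the CD44- arrays, without overlap (log2 difference 1.74 ± 0.49, SE, n = 2 arrays per group, limma adjusted p = 0.199). In sorted samples, fewer cells of a type and less RNA per cell cannot be told apart. A level is the log2 of the processed signal relative to the 75th percentile of its array, and each error after ± is the limma standard error of a difference. Because the labels do not name separate animals, the p-values measure the spread between these arrays only.

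The stretch of DNA just before the start of 5 of these genes is shown, 4 that fell and the 1 that rose, since regulators of hormone genes bind there. The sequences are the 250 bases before the start site, from RefSeq on GRCm38.p6, written 5′ to 3′ along the gene's strand, and all 10 genes matched the table, with 14 start sites between them. Capitals mark every match, on either strand, to the cyclic AMP response element TGACGTCA or its shorter core TGACG, which lies within it, to TATAAA, to the E-box CAGATG, to the AP-1 site TGANTCA and to CCAAT.
Sst, chr16:23890845-23891094, minus strand: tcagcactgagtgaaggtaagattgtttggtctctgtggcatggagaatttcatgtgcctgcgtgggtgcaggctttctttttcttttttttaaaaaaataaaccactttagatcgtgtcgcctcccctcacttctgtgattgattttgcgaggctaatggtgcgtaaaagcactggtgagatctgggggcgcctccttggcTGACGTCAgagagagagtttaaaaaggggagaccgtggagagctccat
Cck, chr9:121495695-121495944, minus strand: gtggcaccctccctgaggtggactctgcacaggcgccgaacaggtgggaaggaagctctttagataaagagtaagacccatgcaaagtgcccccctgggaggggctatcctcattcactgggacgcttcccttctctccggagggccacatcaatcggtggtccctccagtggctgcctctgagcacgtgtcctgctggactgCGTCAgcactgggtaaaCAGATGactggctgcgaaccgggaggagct
Sct, chr7:141279134-141279383, minus strand: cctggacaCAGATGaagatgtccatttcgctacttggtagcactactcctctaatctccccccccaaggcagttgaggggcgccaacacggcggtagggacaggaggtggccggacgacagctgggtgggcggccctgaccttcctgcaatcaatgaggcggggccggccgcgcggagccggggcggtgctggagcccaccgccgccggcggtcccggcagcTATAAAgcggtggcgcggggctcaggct
Ppy, chr11:102101320-102101569, minus strand: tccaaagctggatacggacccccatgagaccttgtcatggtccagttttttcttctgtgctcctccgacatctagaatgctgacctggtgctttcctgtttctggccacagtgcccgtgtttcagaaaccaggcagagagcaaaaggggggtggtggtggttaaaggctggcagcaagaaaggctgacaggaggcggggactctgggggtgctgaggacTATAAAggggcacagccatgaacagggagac
Npy, chr6:49822460-49822709, plus strand: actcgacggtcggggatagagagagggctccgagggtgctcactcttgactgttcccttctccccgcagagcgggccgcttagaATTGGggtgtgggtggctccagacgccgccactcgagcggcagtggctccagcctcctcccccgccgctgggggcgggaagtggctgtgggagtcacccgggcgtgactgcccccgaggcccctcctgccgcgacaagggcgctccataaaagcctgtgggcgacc
The full cyclic AMP response element stood in the Sst window, from 48 to 41 bases before the start, and in no other of the 14 windows. It occurred in 1.55% of all 32851 windows of this length. The shorter core was found before Sst, Cck and Nts, and in 17.8% of all windows. Cck holds it on the opposite strand, from 47 to 43 bases before the start, followed by an E-box from 30 to 25. The E-box stood before Gcg, Sct and Cck, and in 14.4% of all windows. TATAAA lay from 31 to 26 bases before the start of Ppy and from 28 to 23 before Sct, with other matches before Gcg and Gast, and was present in 12.4% of all windows. The Npy window held 1 match, CCAAT on the opposite strand from 166 to 162 bases before the start, a motif of 33.9% of all windows that was also found before Pyy and Ghrl. AP-1 sites, in 6.75% of all windows, stood before Nts and 1 of the 4 starts of Ghrl. No motif was common to the 6 genes that fell. These are matches of letters, and binding was not measured.

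Of the 8 hormone genes tested, ghrelin showed the largest difference. With the probe that was well above background on all 4 arrays, its processed signal was 27.6 and 366 in CD44+ replicates 1 and 2, against 37280 and 106700 in CD44- replicates 1 and 2, the order kept below. In levels this was -3.14 and -0.43 against 6.52 and 7.66, so both CD44- arrays lay far above both CD44+ arrays. The CD44+ arrays themselves differed 6.55-fold, which is more than the 2.21-fold between the CD44- arrays. In the fit with every probe as a row of its own, this probe differed by -8.88 ± 0.84 (SE, n = 2 arrays per group, limma adjusted p = 0.00802). The brighter Ghrl probe, used in the fit by gene, gave -3.53 and 0.51 against 7.38 and 8.51, a difference of -9.45 ± 1.14 (limma adjusted p = 0.0228), but was not well above background on the first CD44+ array. That difference was -7.43 with the first CD44+ array left out and -11.47 with the second CD44+ array left out. The smallest gap between an array of each group was 124-fold for the first probe and 116-fold for the brighter one. Ghrl kept its call with any 1 array left out.

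The probe of somatostatin, like that of proglucagon, is printed 10 times on each array, which shows the spot noise. The median spot signal was 60.0 and 33.2 in CD44+ cells and 3698 and 6806 in CD44- cells. The spots of an array varied with a coefficient of variation of 0.903% to 9.35%, so spot noise was small beside the difference between groups. On the second CD44- array 4 of the 10 spots were outliers by the scanner software's flags and were left out. Levels were -2.02 and -3.92 in CD44+ cells against 3.19 and 3.69 in CD44- cells, a difference of -6.41 ± 0.65 (SE, n = 2 arrays per group), or 85.1-fold (limma adjusted p = 0.0140). The CD44+ arrays lay 3.72-fold apart, and the difference was -7.36 with the first CD44+ array left out and -5.46 with the second CD44+ array left out, where it no longer passed (limma adjusted p = 0.138).

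**Figure D2:**
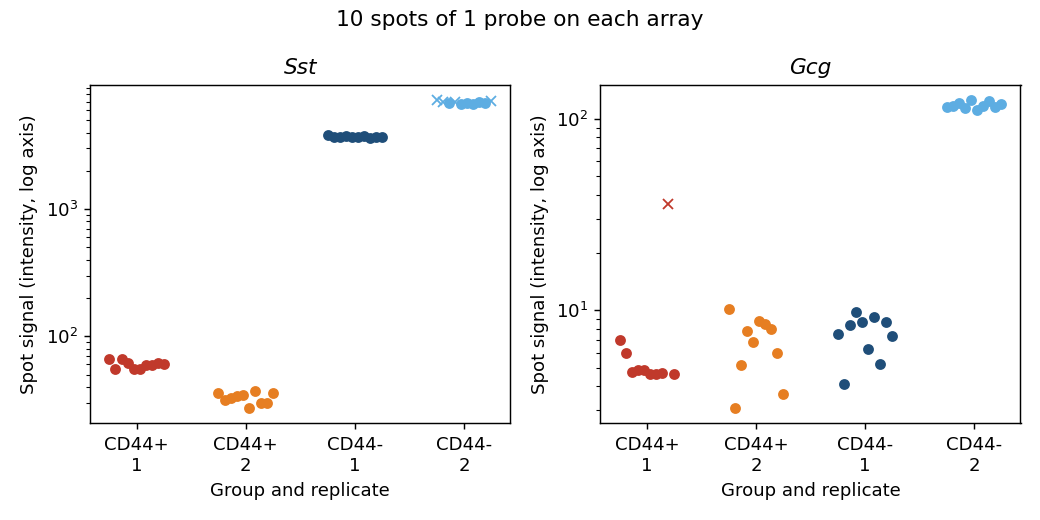
Processed signal (intensity, log axis) of the 10 spots of the Sst probe and the 10 spots of the Gcg probe on each array, with crosses for spots left out as outliers. The Sst spots form tight bands on every array, and the Gcg spots lie around a median of 117 on the second CD44- array and at 10.12 or less among the spots used on the other arrays.

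Gastrin, the acid-stimulating hormone of G cells, was well above background on all 4 arrays and showed no called difference. Its processed signal was 56.9 and 56.1 in CD44+ cells and 131 and 121 in CD44- cells. After scaling, the levels were -2.10 and -3.13 against -1.64 and -2.12, and the groups overlapped, since the first CD44+ array lay just above the second CD44- array. The difference was -0.74 ± 0.52 (SE, n = 2 arrays per group, limma adjusted p = 0.755), with a 95% interval from -1.94 to 0.46. The interval leaves room for a fall of the size of 1 log2 unit, but not for one of the size seen for Sst or Ghrl.

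The neuropeptide Y family split in direction. Neuropeptide Y had a processed signal of 1153 and 2536 in CD44+ cells and 209 and 151 in CD44- cells. Its levels were 2.24 and 2.36 against -0.96 and -1.80, and the CD44+ arrays agreed to within 1.09-fold. The difference was 3.68 ± 0.48 (SE, n = 2 arrays per group), or 12.8-fold (limma adjusted p = 0.0270). Npy no longer passed with either CD44+ array left out (limma adjusted p = 0.208 and 0.206), although the difference was then 3.74 and 3.62. Its probe was well above background on all 4 arrays.

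Peptide YY, which slows gastric emptying and signals satiety, went the other way. Its brighter probe gave processed signals of 624 and 725 in CD44+ cells and 25800 and 39850 in CD44- cells, or levels of 1.36 and 0.56 against 5.99 and 6.24. The difference was -5.16 ± 0.48 (SE, n = 2 arrays per group), or 35.7-fold (limma adjusted p = 0.00985), and the second probe gave -4.09 ± 0.50 (limma adjusted p = 0.0191 in the fit of every probe). Both probes were well above background on all 4 arrays and separated the groups. Without CD44+ replicate 2 the call was lost at a difference of -4.76 (limma adjusted p = 0.151).

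Pancreatic polypeptide, whose gene is the direct neighbour of Pyy on chromosome 11, was well above background in CD44- cells alone. Its processed signal was 19.7 and 4.69 on the CD44+ arrays, neither well above background, and 828 and 1011 on the CD44- arrays. In group means it was therefore at least 38.6-fold lower in CD44+ cells (limma adjusted p = 0.0390, from the fitted levels and not from the limit). The limit, here and below, takes on each array of the dim group the higher of its own signal and the faintest signal well above background. It compares the means of the 2 groups, not single arrays. The CD44- arrays lay within 1.06-fold of each other, the closest pair among the 8 genes tested. The fitted difference was -7.70 with the first CD44+ array left out and -4.62 with the second CD44+ array left out, where the call was lost (limma adjusted p = 0.151).

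**Figure D3:**
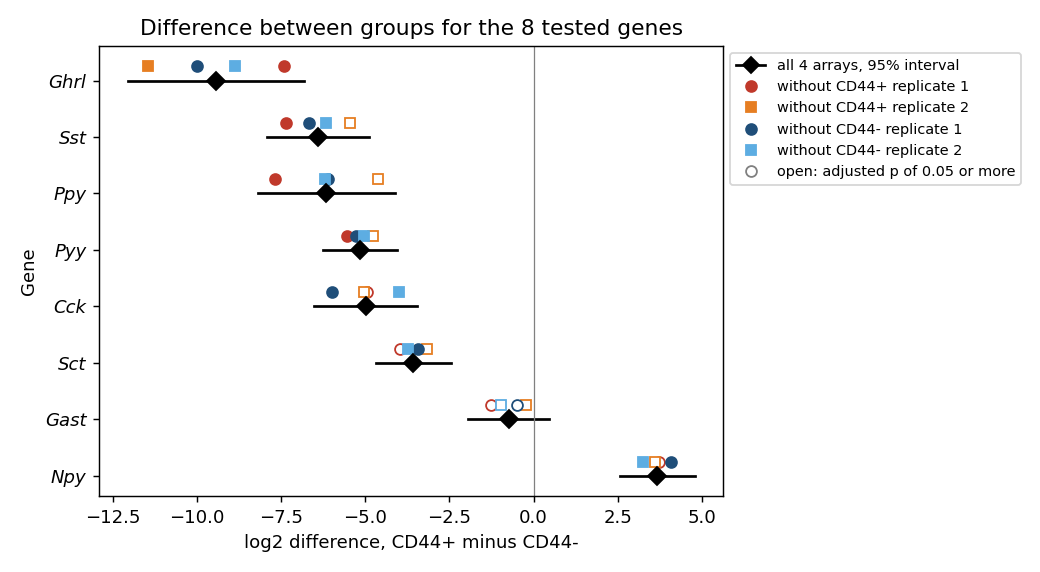
Log2 difference, CD44+ minus CD44-, of the 8 hormone genes tested, with the 95% interval of the limma fit (black) and the difference with each array left out (coloured, open where the adjusted p was 0.05 or more). Npy lies above 0 and the other genes below, Gast reaches 0, and open symbols beside the 7 called genes stand for fits without a CD44+ array.

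Cholecystokinin, which contracts the gallbladder and inhibits gastric emptying, had a processed signal of 13.8 and 30.0 on the CD44+ arrays, well above background on the second alone, and of 379 and 1971 on the CD44- arrays. Its levels were -4.14 and -4.04 against -0.10 and 1.90, a difference of -4.99 ± 0.66 (SE, n = 2 arrays per group, limma adjusted p = 0.0284). The CD44- arrays lay 4.01-fold apart, so the difference was -5.99 with the first CD44- array left out and -3.99 with the second CD44- array left out. It was not called with either CD44+ array left out (limma adjusted p = 0.246 and 0.212).

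Secretin, the duodenal hormone that stimulates bicarbonate secretion, was well above background on all 4 arrays. Its signal was 44.0 and 51.0 in CD44+ cells and 732 and 778 in CD44- cells, or -2.47 and -3.27 against 0.85 and 0.56 in levels. The difference was -3.58 ± 0.48 (SE, n = 2 arrays per group), or 11.9-fold (limma adjusted p = 0.0311). The call was lost with either CD44+ array left out (limma adjusted p = 0.151 and 0.212), at differences of -3.98 and -3.18.

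Proglucagon and neurotensin stood apart from the rest. Proglucagon, the precursor of glucagon and the GLP peptides, had median spot signals of 4.74 and 7.33 in CD44+ cells and 7.91 and 117 on the CD44- arrays. All 10 spots were well above background on the second CD44- array, with a coefficient of variation of 3.72%, and none of the spots used on the other arrays was. Neurotensin, a peptide that slows gut motility, had signals of 5.19 and 6.93 in CD44+ cells and 10.3 and 539 in CD44- cells. The second CD44- array exceeded the faintest detectable level of the first at least 6.77-fold for Gcg and at least 31.0-fold for Nts. With the dim-probe filter removed, neither passed (limma adjusted p = 0.755 for both). The difference between the CD44- arrays is thus larger for these 2 genes and for Cck than for Ghrl, Sst, Pyy, Ppy and Sct, where those arrays lay within 2.21-fold.

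The calls depended on which arrays were used. All 7 calls held with either CD44- array left out. Without CD44+ replicate 1, Ghrl, Ppy, Pyy and Sst passed, and without CD44+ replicate 2 only Ghrl passed, in fits where the lone array is assumed to vary like the others. With quantile normalization none of the 8 passed by limma, although 7 had an unadjusted p under 0.05 and the adjusted p lay between 0.0743 and 0.161 for those 7. No direction reversed in any alternative for any of the 8 genes.

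Among genes for proteins of the secretory granules, Chgb, Chga and Resp18 fell. Of 11 granule genes 7 were tested, and 3 were called lower in CD44+ cells, with 0 higher and a median of -3.09, against 0.16 for all genes. With quantile normalization Chgb was called (limma adjusted p = 0.0369), but not Chga or Resp18 (limma adjusted p = 0.140 and 0.0636). Chromogranin B (Chgb), which helps form the granules, was at -2.26 and -2.07 against 5.49 and 6.31, a difference of -8.06 ± 0.48 (limma adjusted p = 0.00174). Chromogranin A (Chga) differed by -7.58 ± 0.90 (limma adjusted p = 0.0212), and by -6.24 and -8.93 in the fits lacking the first or the second CD44+ array, and -8.40 and -6.77 in those lacking a CD44- array. The granule protein Resp18, well above background on neither CD44+ array, entered the test only through the CD44- arrays. In group means it was at least 61.3-fold lower (limma adjusted p = 0.00545, from the fitted levels). Its fitted differences were -7.63 with the first CD44+ array left out and -6.39 with the second CD44+ array left out. Without CD44+ replicate 2 none of the 3 passed (limma adjusted p = 0.0617, 0.0869 and 0.133 for Chgb, Chga and Resp18), and Chga did not pass without CD44+ replicate 1 (limma adjusted p = 0.109).

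Among the genes of prohormone processing, 1 of 10 tested was called, and the median was -1.28. This was secretogranin V (Scg5), a chaperone of prohormone convertase 2, at -5.67 and -4.59 against 0.01 and 1.32 (difference -5.79 ± 0.61, limma adjusted p = 0.0140), well above background on 1 CD44+ array. Its call was lost with either CD44+ array left out, and the fit lacking the first CD44- array gave -6.45 and that lacking the second gave -5.14. With quantile normalization Scg5 did not pass (limma adjusted p = 0.125). The convertases themselves were not called, with -1.71 for Pcsk1 (limma adjusted p = 0.303) and -1.90 for Pcsk2 (limma adjusted p = 0.199), and both were chosen for mention after their values were seen.

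None of the receptors for these hormones was called. Of 20 receptor genes 12 were tested, and limma called 0, with 3 at an unadjusted p under 0.05, 2 higher and 1 lower, and a median of 0.48. The receptor for pancreatic polypeptide, Npy4r, was at -0.31 and -1.33 against -2.84 and -2.83 (difference 2.02 ± 0.50, limma adjusted p = 0.162). The secretin receptor Sctr, well above background on neither CD44+ array, was at least 4.61-fold lower in group means, without passing (limma adjusted p = 0.125). Its level of -3.15 on the second CD44- array lay close to -3.41, the faintest level well above background on the first CD44+ array. The fitted Sctr difference was -2.22 when the first CD44- array was left out and -4.50 when the second was. The neuropeptide Y receptors Npy1r, Npy2r, Npy5r and Npy6r were well above background on no array, so only a bound is known for these 4. With median scaling Npy4r and Sctr passed (limma adjusted p = 0.0341 and 0.00636), and with quantile normalization neither did (limma adjusted p = 0.258 and 0.344).

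Most other hormones and neuropeptides showed no called difference. Of 33 listed, 22 were tested, and the median was -0.14. With median scaling or the authors' values 1 was called higher and 4 lower, and with normexp 1 and 2, at a median of 0.26. The 1 called gene, Cartpt, which encodes an appetite-suppressing peptide, was at -3.84 and -4.60 against 0.28 and -0.84 (difference -3.94 ± 0.55, limma adjusted p = 0.0354). It was well above background on 1 CD44+ array, so it entered the test only through the CD44- arrays. Its call was lost with either CD44+ array left out, at differences of -4.32 and -3.56. Nutrient-sensing receptors of endocrine cells gave 1 call of 11 tested, the niacin and ketone receptor Hcar2 (difference -4.66 ± 0.48, limma adjusted p = 0.0140), also lost without either CD44+ array (limma adjusted p = 0.124 and 0.179). Endocrine transcription factors had 0 calls of 16 tested by limma, with 7 at an unadjusted p under 0.05, all lower, and a median of -0.90. Over all 21044 genes tested, 2263 had an unadjusted p under 0.05. With median scaling or the authors' values 3 were called lower, and with normexp 2, at a median of -0.05. Isl1, not well above background on the first CD44+ array, differed by -3.91 ± 0.89 (limma adjusted p = 0.134, 0.00396 with median scaling and 0.346 with quantile normalization). Its difference was -5.18 when the first CD44- array was left out and -2.64 when the second was. Neurod1, well above background on neither CD44+ array, had fitted differences of -3.79 and -1.82 in those same fits. In group means it was at least 2.32-fold lower (limma adjusted p = 0.149, 0.0142 with median scaling and 0.305 with quantile normalization). Its level of -4.06 on the first CD44- array lay below -3.41, the faintest level well above background on the first CD44+ array. For that pair of arrays no difference is therefore shown. Peptidases that inactivate such peptides had 0 calls of 8 tested and 1 gene at an unadjusted p under 0.05, namely Anpep (difference -1.82 ± 0.72, limma adjusted p = 0.392). The fit lacking the first CD44- array gave -2.96 and that lacking the second gave -0.69.

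**Figure D4:**
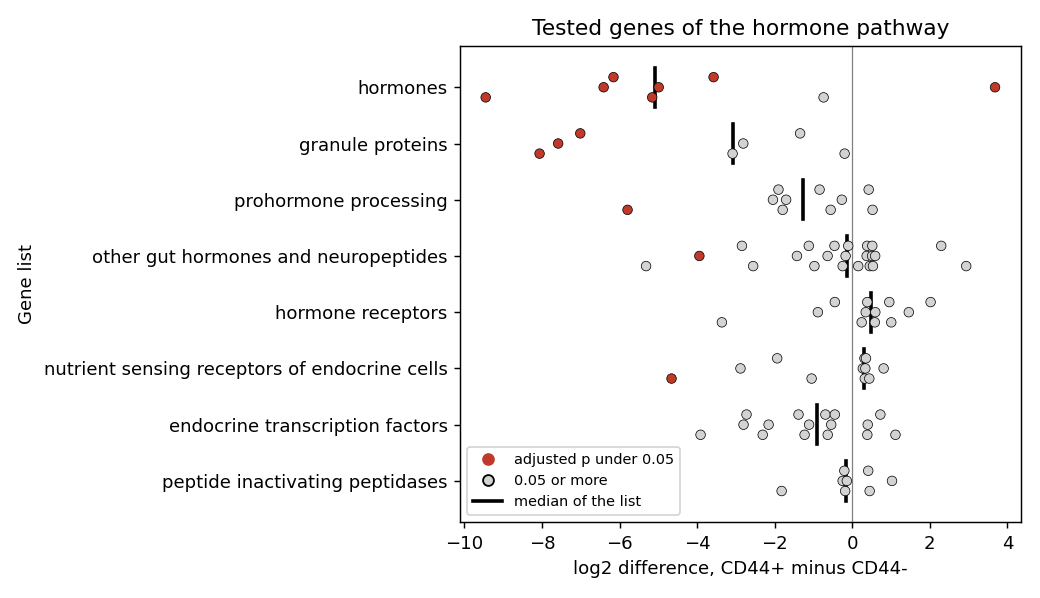
Log2 difference, CD44+ minus CD44-, of each tested gene in 8 lists of the hormone pathway, red where the limma adjusted p was under 0.05, with a black bar at the list's median. Called genes lie among the hormones, granule proteins and processing genes, with 1 each in the other hormones and the nutrient receptors, and none in the other 3 lists.

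Summed markers of several other cell types were also higher on both CD44- arrays than on both CD44+ arrays. Summed levels below add the brightest probe of each gene, in multiples of the array's 75th percentile signal. For the granule proteins they were 1.15 and 2.57 in CD44+ cells and 127 and 331 in CD44- cells. Squamous markers gave 14.7 and 2.01 against 237 and 398, with 3 of 8 tested genes called lower and 0 higher, among them Krtdap, at least 207-fold lower (limma adjusted p = 0.000716). Krtdap was well above background on neither CD44+ array, so it entered the test only through the CD44- arrays. Fibroblast markers gave 7.78 and 42.9 against 68.3 and 456, and endothelial markers 1.31 and 2.11 against 5.74 and 83.6. Parietal cell markers gave 0.378 and 0.485 against 1.76 and 24.3, and chief cell markers 1.25 and 2.51 against 3.47 and 21.5. These last 4 lists were highest on the second CD44- array, the array on which Gcg and Nts were detected and Cck was highest. Limma called 0 genes in them, of 8 fibroblast, 6 endothelial, 3 parietal and 4 chief cell genes tested. In the squamous, endothelial and chief cell lists 1 gene each went the other way, namely Ivl (1.60), Tek (0.30) and Bhlha15 (0.31). The part of these cell types in the hormone differences was not tested.

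Pancreatic islet markers were low throughout, at 1.12 and 0.530 in CD44+ cells and 0.535 and 0.393 on the CD44- arrays, with G6pc2 and Mafa well above background on no array. The insulin gene Ins1 was well above background on 1 array, and Ins2 with 1 of its 2 probes, whose signal was 26.9 and 28.9 against 35.4 and 31.6. Pancreatic acinar markers gave 7.49 and 12.0 against 5.43 and 12.7. Among them, Pnliprp1 was well above background on neither CD44+ array and entered the test only through the CD44- arrays. Of 8 tested, Pnliprp1 was called, at least 38.9-fold lower (limma adjusted p = 0.0270), but not with either CD44+ array left out (limma adjusted p = 0.254 and 0.212), and with fitted differences of -7.97 and -5.03 when the first or the second CD44- array was left out, while Pnlip and Cela2a were well above background on no array.

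For Npy, the summed neuronal markers were 12.1 and 7.69 in CD44+ cells and 9.21 and 9.27 on the CD44- arrays, with Ret, Prph, Snap25 and Nefm well above background on no array. Syn1 leads this sum, at levels of 3.41 and 2.70 against 2.93 and 2.59. Of 7 neuronal genes tested limma called 0, and 3 had an unadjusted p under 0.05, all lower in CD44+ cells, namely Uchl1, Elavl4 and Elavl3, named after their values were seen. Uchl1 was at -3.28 and -3.76 against -1.23 and 0.87 (difference -3.34 ± 0.69, limma adjusted p = 0.112), and its difference was -4.39 when the first CD44- array was left out and -2.29 when the second was. Enteric glia markers were 19.1 and 30.4 against 13.6 and 18.5, a sum led by S100b (difference 0.65, limma adjusted p = 0.770). Leukocyte markers gave 5.89 and 5.59 against 5.18 and 3.78, a sum led by Lcp1. Among them, Cd53 was well above background on neither CD44- array and entered the test only through the CD44+ arrays. Cd53 was called at least 9.06-fold higher (limma adjusted p = 0.0241), though not without either CD44+ array. Of 7 leukocyte genes tested, 4 had differences above 0 and 3 below, among them Tyrobp (-1.74) and Laptm5 (-1.48). Macrophage markers gave 13.2 and 2.03 against 18.6 and 22.6, a sum led by Lyz2 (difference -2.30, limma adjusted p = 0.368). The other 3 macrophage genes tested had differences above 0, from 0.17 to 0.60. Mast cell markers were 10.6 and 15.01 against 3.50 and 3.21, and 1 of 7 tested, Mcpt1, was called higher (difference 2.94 ± 0.45, limma adjusted p = 0.0478), though not with either CD44+ array left out (limma adjusted p = 0.225 and 0.228). Proliferation markers were 46.9 and 54.4 against 17.7 and 13.2, with 0 of 6 called by limma and 6 at an unadjusted p under 0.05. The summed mast cell, glial, leukocyte and proliferation markers were thus higher with Npy. All 7 mast cell genes tested had differences above 0, but those of Kit, Fcer1a and Tpsb2 were 0.06, 0.13 and 0.05. Of 5 glial genes tested, 3 had differences below 0. The part of these cell types in the Npy difference was not tested. Gastric surface and neck markers, which check the labelled tissue, were strong on all arrays, at 3877 and 2150 against 2578 and 1395, a sum led by Tff1, Tff2 and Gkn2. The surface mucin Muc5ac of the same list, named after its values were seen, was at 0.26 and -1.02 against 5.78 and 2.77, without overlap (difference -4.65 ± 0.93, limma adjusted p = 0.105, 0.000880 with median scaling and 0.255 with quantile normalization). Its difference was -3.15 when the first CD44- array was left out and -6.16 when the second was, and its part in the hormone differences was not tested.

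**Figure D5:**
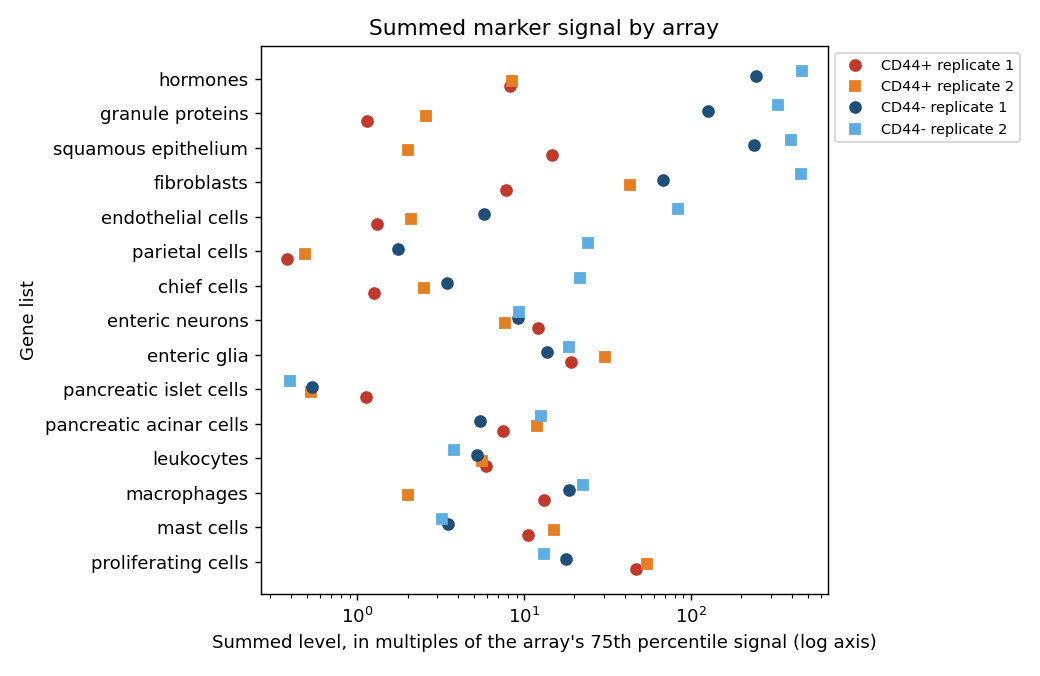
Summed level of each marker list on each array, in multiples of the array's 75th percentile signal on a log axis, with CD44+ arrays in red and orange and CD44- arrays in blue. Hormones, granule proteins and squamous markers lie higher on both CD44- arrays, while mast cell and proliferation markers lie higher on both CD44+ arrays.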

How the data were processed

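RNA from 4 samples, 2 per group, was measured on 1 array each. Per the labels' protocols the RNA was amplified before Cy3 labelling, which can distort ratios between transcripts. The authors deposited scanner tables of intensities, background-subtracted and unscaled between arrays per the file headers, written by Agilent Feature Extraction 10.1.1.1 per the file headers and 9.5 per the submitters' processing notes. The authors' value table holds a ratio, each array divided by 1 factor and each probe by its median over the arrays. For the 10728 probes with a signal above 200 on all 4 arrays, its log2 differences matched the scanner values with an SD of at most 0.00161. Fainter probes were not compared. The lowest value in it was 0.01, and the Ghrl difference was -7.68 with it, against -9.35 with median scaling. Column medians were 0.853 and 0.989 for CD44+ and 0.928 and 0.739 for CD44- replicates. The factors' origin is unknown.

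Control and outlier spots were left out and spots of a probe averaged as log2, giving 41174 probes, 24375 of them named through RefSeq accessions (GRCm38.p6) and 16799 not. Values are log2 intensity minus the array's 75th percentile. Probes well above background on both arrays of a group were tested, the brightest per gene, with limma 3.58.1 in R 4.3.3 (2 residual and 6.01 prior degrees of freedom), checked on simulated data. Alternatives were other scalings, background correction with an offset of 50, the value table, filters, probe rules, a variance trend, a replicate block and leaving out each array. All members were named, with every called gene of a pathway list (at most 6, or the 2 lowest p) and up to 3 of a marker list (or its 2 brightest, not all printed). Members and lists were chosen with earlier results of these data known.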

Additional observations from a re-analysis of the deposited data

How the results depend on the processing

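All 8 hormone genes tested kept their direction in each of the 14 alternatives that could test them (13 for Ppy and Cck), and limma called fewer of the 8 in 4 of these. With the filter for all 4 arrays 5 of the 6 left were called. With quantile normalization limma called 0 hormone genes lower and 0 higher (6 and 1 at an unadjusted p under 0.05) and over all genes 6 lower and 0 higher (1974 at an unadjusted p under 0.05). With no filter on dim probes it called 3 hormone genes lower and 0 higher (6 and 1 at an unadjusted p under 0.05), and over all genes 24 lower and 0 higher (2165). With 1 array left out, hormone genes called lower ranged from 1 to 6 and higher from 0 to 1, and all genes called from 2 to 1383 lower and from 0 to 185 higher. Over all genes, median scaling gave 626 lower and 121 higher, the authors' values gave 627 and 121, normexp background correction 442 and 98, the variance trend 13 higher, and the filter for all 4 arrays 18 higher. Normexp moved the median hormone difference to -3.21. Median scaling moved the median of all genes up by 0.11. The cause of these changes was not tested. The replicate block gave 1493 lower and 336 higher genes and the same 7 hormone calls. The replicate differences of both groups correlated at 0.347 over genes, but with 2 pairs and no label on a shared origin, whether the numbers pair the samples is not known. Slide could not be a block, since all arrays share 1. Depth has no count here. Signal over background limits Ppy, Cck, Gcg and Nts, and 2 arrays per group limit every value.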

Other observations

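Urotensin 2 (Uts2), a vasoactive peptide picked out after its value was seen, lay higher in CD44+ cells. Its levels were 6.03 and 6.72 in CD44+ cells and 3.38 and 3.49 in CD44- cells, a difference of 2.94 ± 0.47 (SE, n = 2 arrays per group), or 7.66-fold. It failed over all genes (limma adjusted p = 0.0550), passed with median scaling (limma adjusted p = 0.00271) and failed with quantile normalization (limma adjusted p = 0.140). The groups did not overlap, and the 4 fits lacking 1 array gave differences from 2.59 to 3.28. Gastrin-releasing peptide (Grp), which stimulates gastrin release and was also picked out after its value was seen, had levels of -2.39 and -5.75 in CD44+ cells and 0.86 and 1.64 in CD44- cells. Its difference was -5.32 ± 0.96 (limma adjusted p = 0.0828), and -3.64 without CD44+ replicate 2 (limma adjusted p = 0.200). Grp was not well above background on CD44+ replicate 2, so its level there is only a bound. The opioid precursor Penk and the calcitonin gene-related peptide gene Calcb, likewise picked out afterwards, differed by -2.56 (limma adjusted p = 0.0769) and -2.85 (limma adjusted p = 0.0767), and neither passed. Each was well above background on 1 CD44+ array alone, so both entered the test only through the CD44- arrays.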
